A study of Danio rerio with 6 samples.

Results

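Rab GTPases are small GTP-binding proteins that mark the membranes of the secretory and endocytic routes. They were examined as the genes of the deposited table whose symbol is "rab" followed by a number and an optional paralogue letter, leaving out the Rab-interacting proteins and Rab regulators that share the prefix. This gave 73 genes of 25645, and 71 of them passed the filter on low counts and were tested. RNA sequencing had been done on 3 wild-type zebrafish samples and 3 samples of pikfyve-delta8 fish. The submitters' design text describes the latter as homozygotes of an allele made with CRISPR/Cas9 that lacks a working phosphoinositide kinase domain. No tissue, age, sex or treatment is recorded for either genotype, and nothing states whether a sample was a single fish or a pool. Replicate samples may therefore be technical, and p-values measure only the spread between these samples.

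A Rab protein switches between a GTP-bound form, which recruits effector proteins to a membrane, and a GDP-bound form, which is taken off the membrane. Exchange factors (GEFs) load GTP, GTPase-activating proteins (GAPs) end the active state, and GDP dissociation inhibitors (GDIs) hold the prenylated protein in the cytosol. Pikfyve makes its lipid product on endosomes and lysosomes, where Rab5 and Rab7 mark early and late compartments. Neurons release transmitter with the help of Rab3 proteins, and pigment cells build melanosomes with Rab32 and Rab38. Zebrafish hold many of these genes as duplicate copies, and the letters after the number mark isoforms or duplicates. The 73 genes were placed in classes by number alone: 30 endolysosomal, 20 secretory, 9 synaptic or granule-release, 5 of lysosome-related organelles and 9 others.

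The samples held 14677252 to 14949605 estimated reads each, so a single read stood for 0.0635 to 0.0728 CPM. CPM are reads scaled by library size and the TMM factor, edgeR's correction for composition. Pairs of samples correlated over genes (not independent points) in log2 CPM at 0.991 to 0.992 among wild-type samples and 0.975 to 0.98 among mutants. The pikfyve transcript itself stood at 56.6, 53.8 and 52.1 CPM in wild type and at 61.2, 63.2 and 73.6 CPM in the mutants, and this sum over the gene is no test of the allele. Levels below are CPM in wild-type samples 1 to 3 and mutant samples 1 to 3, and changes are log2 fold changes ± SE, mutant minus wild type. A gene is said to have risen or fallen when its edgeR quasi-likelihood test gave an adjusted p under 0.05 over all 21104 genes tested. Reads of 72 of the 73 genes were whole numbers in every sample (tolerance 0.005), as is seen when no read is divided between genes, and the exception was rab19. Strandedness is not given in the sources used, and reads of an antisense partner could not be told apart.

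Rab transcripts changed in both directions. Among endolysosomal members 15 of 30 rose and 2 fell, and among synaptic members 5 of 9 fell and 2 rose. Of the 71 tested, 27 rose, 17 fell and 27 were not called. In 52 Rab genes the genotypes did not overlap in CPM, against 58.8% of all genes. Over all genes tested 48.0% were called, 25.1% higher and 23.0% lower. The Rab set as a whole had a called share of 62% and a median log2 fold change of 0.12, against 0.00 for all genes. At least 2-fold changes were seen in 5 genes that rose (rab7b, rab32a, rab38c, rab42b and rab43) and 5 that fell (rab3ab, rab3b, rab3aa, rab26 and rab39ba), against a background of 7.43% and 5.77% of all genes. The balance depended on the scaling. With library size alone, which moved the median of all genes to -0.139, 17 Rab genes rose and 23 fell, so changes are relative to the TMM reference.

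**Figure D1:**
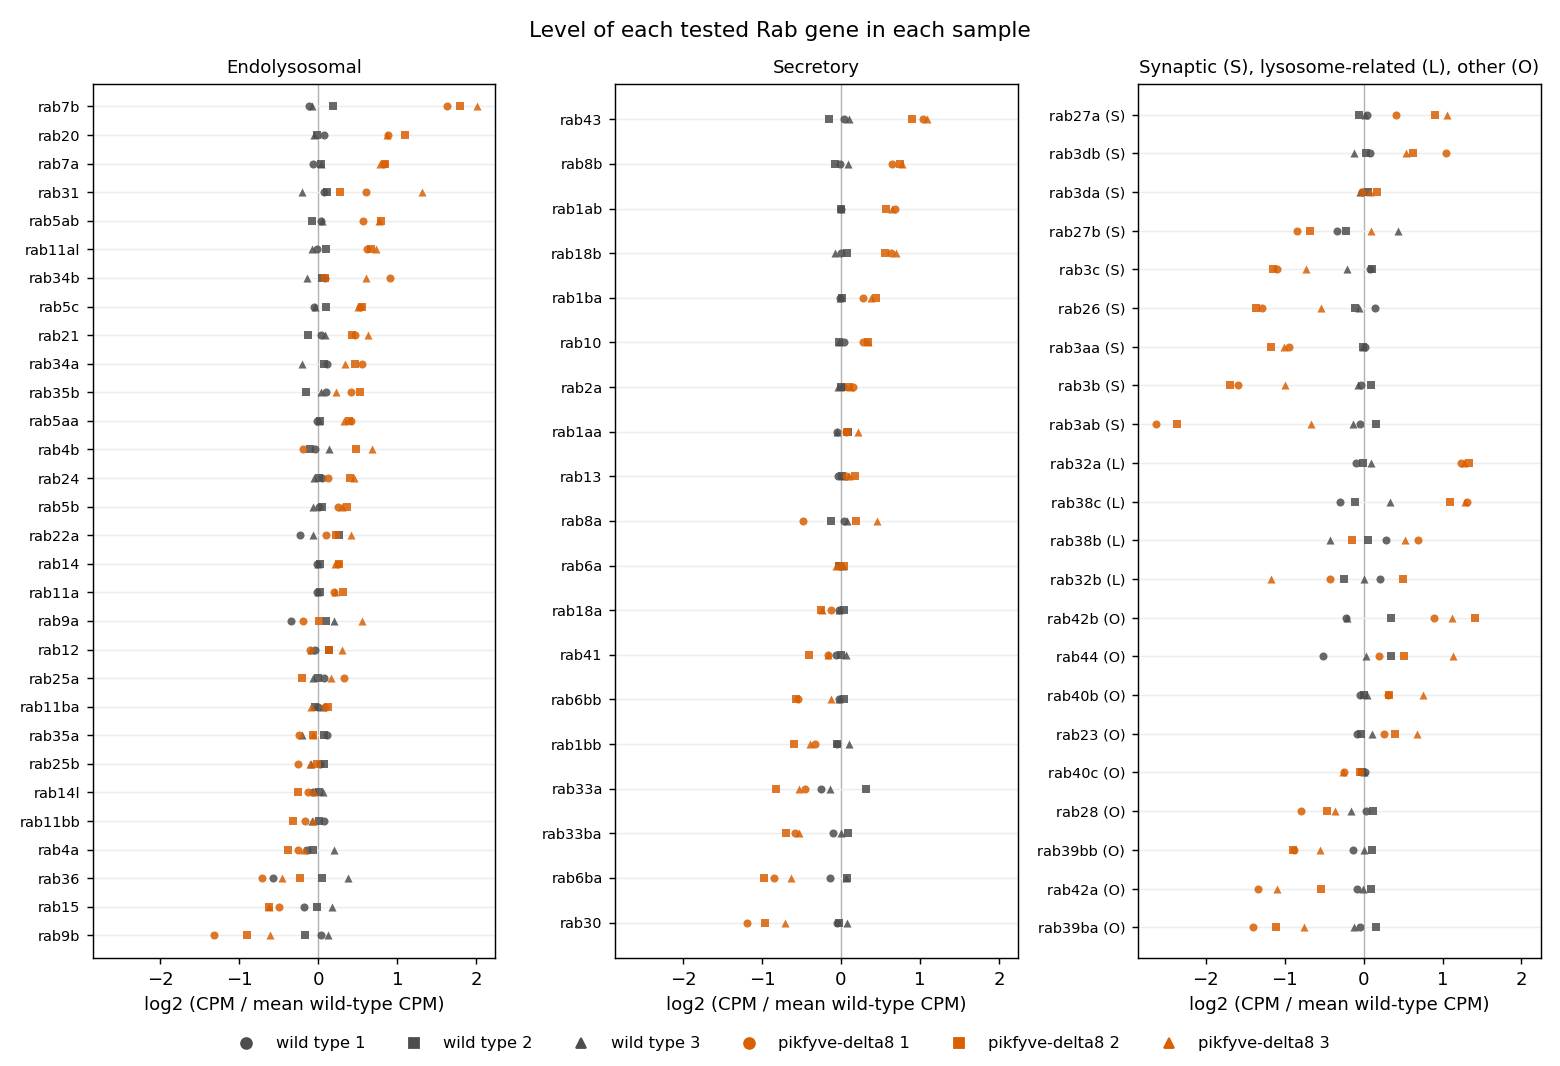
Level of each of the 71 tested Rab genes in each sample, as log2 of CPM over the mean wild-type CPM, in 3 panels by class; grey symbols are wild type, orange symbols are mutants, and the symbol shape gives the replicate. The 3 mutants lie to the right for rab7b, rab7a and rab32a and to the left for rab3b, rab3aa and rab39ba, and mutant 3 lies nearest to wild type for rab3ab.

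The make-up of the Rab pool was read from deposited TPM values, which are scaled by transcript length and so can be compared between genes. Summed Rab TPM was 1524, 1503 and 1518 in wild type and 1533, 1560 and 1760 in the mutants. Every mutant lay above the wild-type samples, the first of them by little. In CPM the sums were 2006, 2053 and 2016 in wild type and 2359, 2386 and 2428 in the mutants. The size of the gap thus depends on the unit and its scaling. Endolysosomal Rabs held 44.4%, 44.6% and 45% of the summed Rab TPM in wild type and 50.8%, 51.3% and 49.7% in the mutants. Synaptic Rabs held 7.17%, 7.21% and 6.62% in wild type and 3.27%, 3.55% and 4.54% in the mutants. The secretory share was 42.2% ± 0.281 in wild type and 40.3% ± 0.683 in the mutants, and the share of lysosome-related organelle Rabs was 0.757% ± 0.0288 and 1.37% ± 0.0411 (SD, n = 3). None of these 4 shares overlapped between the genotypes, nor did that of the other Rabs (5.36% ± 0.189 and 3.93% ± 0.368). The shares add to 100%, so they are not separate results. Of all genes tested singly, 58.8% did not overlap in CPM. Shares within the pool do not depend on how the libraries are scaled to each other.

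**Figure D2:**
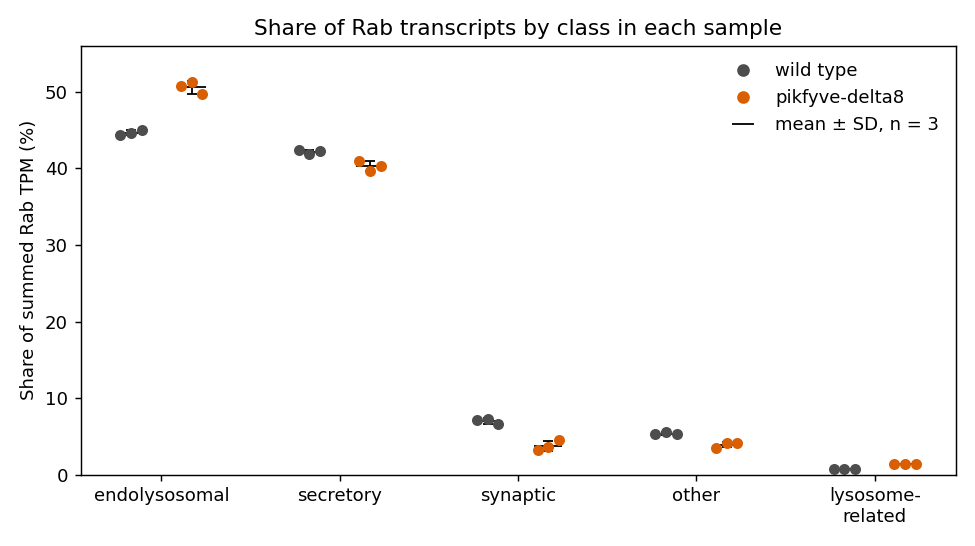
Share of summed Rab TPM held by each class in each sample (percent, linear axis from 0); points are samples, and black bars give the mean ± SD of 3 samples. The endolysosomal share lies between 44.4% and 45% in wild type and between 49.7% and 51.3% in the mutants, and the synaptic share is lower in every mutant.

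The highest Rab transcript in both genotypes was rab2a, which acts between endoplasmic reticulum (ER) and Golgi, at a mean TPM of 146 in wild type and 142 in the mutants. Next came rab10, of exocytosis, at 117 and 131 TPM. In wild type rab5c, rab11a, rab7a, rab5aa and rab14 followed at 83.2, 76.2, 75.2, 74 and 71 TPM, and the sample range of rab7a overlapped those of rab11a and rab5aa. In the mutants rab7a was at rank 3 with 118 TPM, and rab7b moved from rank 29 to rank 9. The lowest were rab38a, at 0.203 and 0.403 TPM, and rab44, at 0.143 and 0.207 TPM.

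Early endosome Rabs were mostly higher in the mutants. All 4 Rab5 genes, which drive fusion of early endosomes, rose, as did rab21, of integrin endocytosis. The highest of them by TPM, rab5c, stood at 127, 142 and 128 CPM in wild type and at 191, 194 and 187 CPM in the mutants, a change of 0.53 ± 0.07 (edgeR adjusted p = 0.000299). For rab5aa the levels were 124, 127 and 126 CPM against 167, 165 and 158 CPM (0.38 ± 0.07, edgeR adjusted p = 0.00111). The steepest rise of the 4 was that of rab5ab, from 21.1, 19.6 and 21.4 CPM to 30.6, 36 and 35.1 CPM (0.71 ± 0.10, edgeR adjusted p = 0.000256). Levels of rab5b were 41.8, 42.8 and 39.7 CPM against 49.3, 53.4 and 51.2 CPM (0.31 ± 0.07, edgeR adjusted p = 0.00634). In each of these genes every mutant lay above every wild-type sample. The call for rab5b was lost with library size alone (adjusted p = 0.0941) and with log2(FPKM + 1) (adjusted p = 0.0951), within a range of 0.00613 to 0.0951 over all alternatives. The change in rab5aa was 0.24 with library size alone. Of the 7 early endosome genes 5 rose (71.4%) and 0 fell, beside 25.1% and 23.0% of all genes, with a median of 0.51. The uncalled pair was rab22a (0.25) and the weakly expressed rab31 (0.79).

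Late endosome and lysosome Rabs held the strongest rise of the family. Rab7a brings late endosomes and autophagosomes to lysosomes, and both zebrafish genes numbered Rab7 rose. Transcripts of rab7b stood at 12, 14.8 and 12.4 CPM in wild type and at 40.4, 45.5 and 52.6 CPM in the mutants, 3.54-fold higher (1.82 ± 0.12, edgeR adjusted p = 5.53e-06). Those of rab7a stood at 103, 110 and 110 CPM against 191, 193 and 185 CPM, 1.76-fold higher (0.82 ± 0.07, edgeR adjusted p = 1.68e-05). The genotypes were widely apart for both. Of the summed TPM of rab7a and rab7b, rab7b made up 17.7%, 19.6% and 16.9% in wild type and 28.2%, 30.4% and 34.5% in the mutants. A phagosome Rab, rab20, rose from 10.7, 10.1 and 9.8 CPM to 18.8, 21.8 and 18.6 CPM (0.95 ± 0.11, edgeR adjusted p = 0.000114).

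Of the 2 Rab9 genes, whose proteins return receptors from late endosomes to the Golgi, 1 fell and 1 was not called. Levels of rab9b fell from 5.15, 4.47 and 5.51 CPM to 2.01, 2.69 and 3.29 CPM (-0.92 ± 0.21, edgeR adjusted p = 0.00544). Its paralogue rab9a was at 2.73, 3.69 and 3.97 CPM in wild type and at 3.02, 3.49 and 5.07 CPM in the mutants, with overlapping groups (0.16 ± 0.24, edgeR adjusted p = 0.613), and its change was -0.10 without mutant 3. Of the 10 genes of the late endosome and lysosome subclass 6 rose (60%) and 1 fell (10%), with a median of 0.39. Over all genes tested the shares were 25.1% and 23.0%. Besides the Rab7 genes and rab20, the risen ones were rab24, rab34a and rab34b, at 0.33 to 0.57, and their calls held in 2, 10 and 4 of 16 alternatives. The uncalled ones were rab9a, rab12 and rab36.

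Among recycling Rabs the share of risen genes was near that of all genes. Of 13 genes that return cargo from endosomes to the surface, 4 rose (30.8%) and 1 fell (7.69%), and the median was 0.04. Over all genes tested the shares were 25.1% and 23.0%. The gene rab14, of traffic between endosomes and Golgi, rose from a mean of 121 CPM to 143 CPM (0.24 ± 0.06, edgeR adjusted p = 0.0116). In TPM it stood at 71.3, 70.1 and 71.5 against 73, 73 and 78.3, with the mutants just above wild type. That call was lost with library size alone (adjusted p = 0.222), on both FPKM scales and without wild-type sample 1 (0.0605) or 3 (0.0607), within a range of 0.00626 to 0.222. The other risen ones were rab11a, rab35b and rab11al, at 0.24 to 0.67, and their calls held in 10, 7 and 16 of 16 alternatives. The member that fell was rab15, enriched in neurons in mammals, from 12.8, 14.4 and 16.4 CPM to 10.3, 9.46 and 9.45 CPM (-0.58 ± 0.12, edgeR adjusted p = 0.00367). The epithelial recycling genes rab25a and rab25b were not called, at 0.11 and -0.13. Of 8 epidermis and epithelium markers 5 rose and 1 fell, while their summed level was 11386 to 13210 CPM in wild type and 6766 to 9454 CPM in the mutants. Without krt4 the sums overlapped, at 2051 to 2602 CPM and 2447 to 3242 CPM. The remaining uncalled ones were rab4a, rab4b, rab11ba, rab11bb, rab14l and rab35a, between -0.27 and 0.37.

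Over the whole endolysosomal class 15 of 30 rose and 2 fell, a higher share of 50% beside 25.1% of all genes and a lower share of 6.67% beside 23.0%. The median was 0.28. With library size alone 8 rose and 5 fell, and the FPKM fits gave the same pair of counts over 28 tested genes. The counts over all genes moved too. With library size alone 3824 of 21104 genes rose and 6561 fell, against 5295 and 4845 in the main fit. On log2(FPKM + 1) 3568 of 18937 genes rose and 6252 fell. Without wild type replicate 3 the count of risen endolysosomal genes was 9, and 4138 of 21437 genes rose. Of 7 tested genes on the list for neutrophils 6 rose, and csf3r was not called (edgeR adjusted p = 0.156). The risen ones include cpa5 and il6r, which are not particular to neutrophils. Levels of cpa5 were 1629 to 1773 CPM in wild type, and it held 86% of the summed level of the list. Without cpa5 the sum was 56.2 to 61.3 CPM in wild type and 370 to 806 CPM in the mutants. The largest gene of that sum was mmp9, at 17.2 to 20.3 CPM in wild type and 147 to 469 CPM in the mutants. Levels of mpx were 8.97 to 10.4 CPM and 109 to 217 CPM. Of 6 tested macrophage and microglia markers 2 rose and 2 fell, and their sum without apoeb overlapped between the genotypes, at 25.9 to 28.3 CPM and 24.7 to 40.1 CPM. No marker on either list was at 0 in all samples, and the part of these cells in the Rab changes was not tested. In bulk RNA a change in the number of cells of a type and a change in RNA per cell cannot be told apart.

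Rab32 and Rab38 proteins carry enzymes to melanosomes and other lysosome-related organelles. Of their 4 tested genes 2 rose (50%) and 0 fell, beside 25.1% and 23.0% of all genes. Levels of rab32a were 7.75, 8.29 and 8.84 CPM in wild type and 19.5, 20.9 and 20.1 CPM in the mutants, 2.43-fold higher (1.28 ± 0.11, edgeR adjusted p = 1.55e-05). Within each genotype the samples lay close together. Those of rab38c were 1.08, 1.23 and 1.67 CPM against 3.3, 2.84 and 3.22 CPM (1.23 ± 0.24, edgeR adjusted p = 0.00208), or 0.68 on the log2(FPKM + 1) scale. The other tested genes were not called: rab38b at 0.40 and rab32b at -0.21, with 242 and 36 reads over the wild-type samples. Too few reads were counted for a test of rab38a, with 10 over wild type and 20 over the mutants. Of 8 melanophore markers 3 rose and 1, mitfa, fell, with summed levels of 116 to 126 CPM in wild type and 143 to 187 CPM in the mutants. Without pmela, which held 39.7% of the sum, the levels were 73.1 to 78.5 CPM and 79.7 to 111 CPM. None of these markers was at 0 in all samples, and their part in the result was not tested.

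Of 19 tested secretory Rabs 6 rose and 6 fell (31.6% each), beside 25.1% and 23.0% of all genes, with a median of 0.11. The 2-fold riser was rab43, of ER and Golgi traffic, from 12.8, 11.2 and 13.3 CPM to 25.6, 23.2 and 26.4 CPM (1.01 ± 0.11, edgeR adjusted p = 6.94e-05), or 0.66 on the log2(FPKM + 1) scale. Transcripts of rab8b, of post-Golgi delivery to the surface and to cilia, rose from 9.53, 9.13 and 10.2 CPM to 15.1, 16.1 and 16.4 CPM (0.72 ± 0.11, edgeR adjusted p = 0.000484). Those of rab1ab, which tethers ER-derived vesicles, also rose, by 0.64 ± 0.07 in the edgeR fit on counts (edgeR adjusted p = 6.4e-05). In TPM, which that fit did not use, rab1ab stood at 68.3, 66.2 and 68.1 against 94.4, 86.8 and 101. Each of these genes was higher in all 3 mutants than in any wild-type sample. The other risen genes were rab18b, rab1ba and rab10, at 0.32 to 0.63, and their calls held in 16, 16 and 13 of 16 alternatives.

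The fallen secretory genes were mostly Golgi Rabs. Of 8 tested Golgi Rabs 5 fell and 1 rose, beside 23.0% and 25.1% of all genes. Among these falls only those of rab30 and rab6ba held in all 16 alternatives. Levels of rab30, a Golgi Rab, went from 7.24, 7.39 and 7.94 CPM to 3.3, 3.86 and 4.59 CPM (-0.94 ± 0.16, edgeR adjusted p = 0.00115). Those of rab6ba, a copy of the Golgi Rab that is brain-enriched in mammals, went from 29.7, 34.5 and 34.2 CPM to 18.2, 16.7 and 21.2 CPM (-0.81 ± 0.11, edgeR adjusted p = 0.000323). The genotypes were clear of each other in both genes. At low levels rab33ba, a Golgi and autophagy Rab, went from 2.22, 2.53 and 2.37 CPM to 1.58, 1.46 and 1.64 CPM (-0.60 ± 0.22, edgeR adjusted p = 0.0431), or -0.33 on the log2(FPKM + 1) scale. The rab33ba call was lost with no filter (adjusted p = 0.0538), with DESeq2 (adjusted p = 0.177), under the replicate block (adjusted p = 0.0869) and in 5 fits that left out a sample, within a range of 0.0194 to 0.177. The other fallen genes were rab6bb, rab41 and rab1bb, at -0.43 to -0.24, and their calls held in 11, 10 and 16 of 16 alternatives. The widely expressed rab6a was at 64.4, 63.9 and 66.3 CPM against 63.8, 66.9 and 62.1 CPM, a change of -0.01 ± 0.07 (edgeR adjusted p = 0.883). The count of fallen secretory genes was 3 without wild type replicate 1, 2 or 3 and without pikfyve-delta8 replicate 2. Over all genes 3624, 3698, 3629 and 4541 fell in those fits, of 21374 to 21437 tested. In the main fit 4845 of 21104 fell. The uncalled members besides rab6a were rab2a (0.12), rab1aa (0.12), rab8a (0.11), rab13 (0.11), rab18a (-0.20) and rab33a (-0.59), and rab19, with 19 and 18 reads over the genotypes, was not tested.

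Synaptic Rabs showed the largest falls of the family. Of 9 genes 5 fell and 2 rose, a lower share of 55.6% beside 23.0% of all genes, and the median was -0.97. Rab3 proteins hold synaptic vesicles ready for release. Levels of rab3b were 48.9, 53.4 and 47.4 CPM in wild type and 16.6, 15.5 and 25 CPM in the mutants, 2.62-fold lower (-1.39 ± 0.16, edgeR adjusted p = 0.000203). Those of rab3aa were 23.6, 23.3 and 23.3 CPM against 12.2, 10.4 and 11.6 CPM (-1.04 ± 0.10, edgeR adjusted p = 4.19e-05). Those of rab3c were 24.1, 24.7 and 19.7 CPM against 10.7, 10.3 and 13.8 CPM (-0.97 ± 0.14, edgeR adjusted p = 0.00042). Mutant 3 was the highest mutant for rab3b and rab3c, and still below every wild-type sample.

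The spread among mutants was widest for rab3ab, at 7.31, 8.42 and 6.85 CPM in wild type and 1.22, 1.46 and 4.73 CPM in the mutants (-1.59 ± 0.43, edgeR adjusted p = 0.0157). Without pikfyve-delta8 replicate 3 its change was -2.50, and without wild type replicate 2 the call was lost (adjusted p = 0.0545, with a range of 7.33e-06 to 0.0545). A Rab of synaptic vesicle turnover, rab26, fell from 10.3, 8.68 and 8.97 CPM to 3.81, 3.64 and 6.44 CPM (-1.0 ± 0.21, edgeR adjusted p = 0.00361). Mutant 3 was also the highest mutant in the summed level of 10 neuron markers, which was 1941, 1989 and 1964 CPM in wild type and 999, 989 and 1307 CPM in the mutants. All 10 markers fell, with a median of -0.80, and none was at 0. Their part in the results for synaptic Rabs, rab15, rab6ba, the Rab39 genes and madd was not tested.

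Rab27a and Rab3D, known in mammals from release by gland and blood cells, have zebrafish relatives that rose. Levels of rab27a, of granule and melanosome transport, rose from 11.5, 10.8 and 11.3 CPM to 14.9, 21 and 23.3 CPM (0.82 ± 0.16, edgeR adjusted p = 0.00218). Those of rab3db, a copy of the exocrine granule Rab, rose from 1.4, 1.36 and 1.22 CPM to 2.73, 2.04 and 1.92 CPM (0.74 ± 0.25, edgeR adjusted p = 0.0318), or 0.38 on the log2(FPKM + 1) scale. For rab3db the call was lost with library size alone (adjusted p = 0.0692), with DESeq2 (adjusted p = 0.124), under the replicate block (adjusted p = 0.0528) and in 4 fits without a sample, within a range of 0.0245 to 0.124. Its duplicate rab3da was not called, at 3.43, 3.63 and 3.39 CPM against 3.45, 3.93 and 3.7 CPM (0.08 ± 0.17, edgeR adjusted p = 0.711), and its change was -0.06 with library size alone. For rab27b the values were 1.02, 1.1 and 1.73 CPM against 0.718, 0.801 and 1.37 CPM, with overlapping groups (-0.40 ± 0.36, edgeR adjusted p = 0.377).

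Of the 9 remaining Rabs 2 rose (22.2%) and 4 fell (44.4%), beside 25.1% and 23.0% of all genes. The Rab39 pair, whose mammalian relative RAB39B is a brain Rab linked to intellectual disability, fell together. Levels of rab39ba were 8.07, 9.26 and 7.62 CPM against 3.16, 3.86 and 4.93 CPM (-1.06 ± 0.18, edgeR adjusted p = 0.00114). Those of rab39bb were 9.15, 10.8 and 10.1 CPM against 5.46, 5.39 and 6.85 CPM (-0.76 ± 0.15, edgeR adjusted p = 0.00203). No mutant reached the wild-type range in either gene. The ciliary Rab gene rab28, mutated in human cone-rod dystrophy, went from 8.9, 9.52 and 7.81 CPM to 5.03, 6.33 and 6.78 CPM (-0.53 ± 0.16, edgeR adjusted p = 0.0184). Leaving out wild-type sample 1 (adjusted p = 0.0637) or 2 (0.0807) ended this call, within a range of 0.00395 to 0.0807. Of 10 photoreceptor markers 9 fell and 0 rose, from summed levels of 3490 to 3805 CPM to 911 to 1408 CPM, and their part in the rab28 result was not tested.

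Rab40 proteins carry a domain that recruits a ubiquitin ligase, and rab40b rose from 15.5, 16.1 and 16.5 CPM to 19.9, 20.1 and 27.1 CPM (0.48 ± 0.13, edgeR adjusted p = 0.0135). It was highest in mutant 3, and the change was 0.30 without that sample. The call was lost with library size alone (adjusted p = 0.0889), on both FPKM scales and without wild type replicate 1 (adjusted p = 0.0578), within a range of 0.00817 to 0.102. The uncalled genes were rab23, a regulator of Hedgehog signalling (0.45, edgeR adjusted p = 0.0523), rab40c (-0.18) and rab44 (0.67).

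Genes of the same Rab number, taken here as a family of isoforms and duplicates, did not always change alike. Among 21 families with at least 2 tested members, 12 had risen members and no fallen ones, and 4 had fallen members and no risen ones. Both kinds were present in 3 families and neither in 2. Of all genes tested 25.1% rose and 23.0% fell, and no such tally was made over other gene families. Among families of 2 tested members the pair furthest apart was Rab42, a little studied Rab. Levels of rab42a were 5.66, 6.41 and 5.96 CPM in wild type and 2.37, 4.15 and 2.81 CPM in the mutants (-0.95 ± 0.21, edgeR adjusted p = 0.00461). Those of rab42b were 1.97, 2.92 and 1.99 CPM against 4.24, 6.11 and 5 CPM (1.16 ± 0.23, edgeR adjusted p = 0.0023). The main copy by TPM was thus rab42a in each wild-type sample, at 70.1% to 76.2% of the pair, and rab42b in each mutant, at 58% to 62.7%, while the summed TPM of the pair overlapped between genotypes.

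In the Rab18 pair, of ER and lipid droplets, rab18b made up 52.4%, 52.8% and 51.2% of TPM in wild type and 64.8%, 65.6% and 67.6% in the mutants. The other families with members in both directions were Rab1, with rab1ab up and rab1bb down, and Rab3. The summed TPM of the Rab3 genes was 84.8 ± 5.48 in wild type and 38.8 ± 9.75 in the mutants (SD, n = 3). Within it rab3da, which was not called, held 8.56% ± 0.444 in wild type and 18.2% ± 3.38 in the mutants. Differences between paralogues were not tested. In the GRCz12tu annotation, where 72 of the 73 genes were matched, rab39ba, which fell, lies beside rab38c, which rose, and rab25b, which was not called, lies beside rab11al, which rose.

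**Figure D3:**
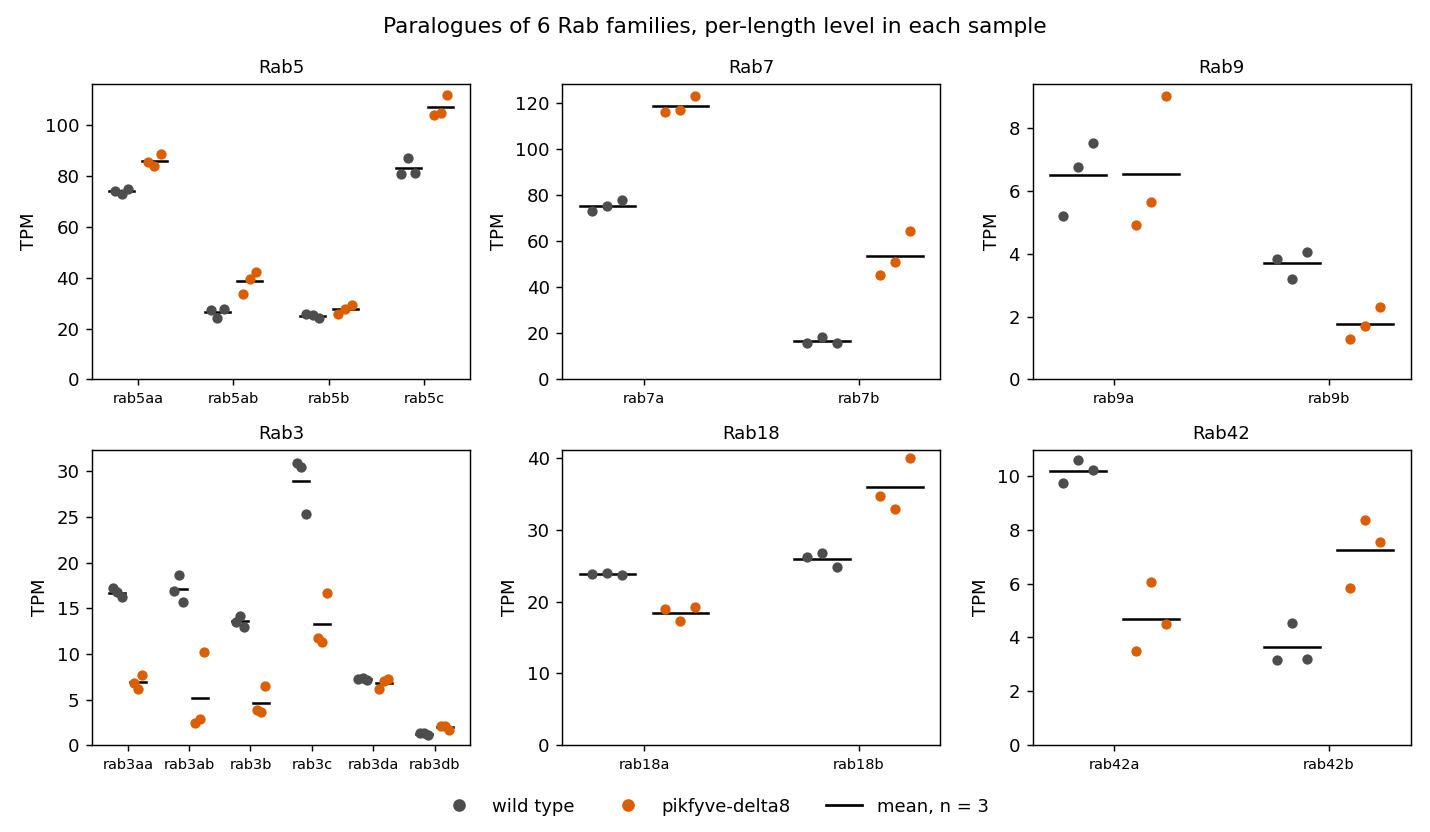
TPM of each paralogue of 6 Rab families in each sample (linear axes from 0); grey points are wild type, orange points are mutants and black lines are means of 3 samples. Both Rab7 genes and the Rab5 genes are higher in the mutants, rab9b and rab3aa, rab3ab, rab3b and rab3c are lower, and the 2 Rab42 genes cross.

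The proteins that act on Rabs were followed through a list of 135 genes chosen by symbol, of which 134 were tested. In all 44 rose (32.8%) and 28 fell (20.9%), with a median of 0.06, beside 25.1% and 23.0% of all genes. This balance also depended on the scaling. With library size alone 34 rose and 39 fell, where 3824 of all 21104 genes rose and 6561 fell. On log2(FPKM + 1) 31 of 122 rose and 37 fell. GEFs had the highest median of the 4 roles, at 0.41, with 20 of 33 risen (60.6%) and 4 fallen. The GEF gene hps4, whose mammalian product with HPS1 activates Rab32 and Rab38, rose from 7.12, 6.74 and 7.49 CPM to 18.4, 19.8 and 17.3 CPM (1.38 ± 0.11, edgeR adjusted p = 1.51e-05). The DENN-domain GEF gene dennd2db rose from 2.29, 1.88 and 2.11 CPM to 5.74, 6.48 and 6.85 CPM (1.6 ± 0.18, edgeR adjusted p = 8.38e-05). On the log2(FPKM + 1) scale the change in dennd2db was 1.02. Both genes were higher in every mutant. By contrast madd, which encodes the GEF of Rab3 and Rab27, fell from 109, 110 and 107 CPM to 67.5, 62.2 and 89.9 CPM (-0.57 ± 0.12, edgeR adjusted p = 0.00448). The fall of dennd5a (-0.39) was lost without any single wild-type sample or without pikfyve-delta8 replicate 1, with adjusted p from 0.0031 to 0.0961.

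Of 42 GAPs 11 rose (26.2%) and 9 fell (21.4%), shares near the 25.1% and 23.0% of all genes, with a median of 0.04. The gene tbc1d15, whose mammalian product acts on Rab7, rose from 21.6, 22 and 21.5 CPM to 47.8, 48.5 and 44.6 CPM (1.12 ± 0.08, edgeR adjusted p = 5.99e-06). Levels of tbc1d2, another GAP of Rab7 in mammals, rose from 4.45, 5.05 and 5.19 CPM to 11.3, 17.8 and 23.9 CPM (1.85 ± 0.26, edgeR adjusted p = 0.000522), or 1.23 on the log2(FPKM + 1) scale. The genes that fell most among the named GAPs were tbc1d24, mutated in human epilepsy, and tbc1d19. Levels of tbc1d24 were 44.9, 49.2 and 49.2 CPM against 17.5, 17.1 and 16.9 CPM (-1.47 ± 0.08, edgeR adjusted p = 2.05e-06), and the change in tbc1d19 was -1.12 ± 0.18.

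Of 52 effectors 10 rose (19.2%) and 14 fell (26.9%), again near the shares of all genes, with a median of -0.02. A Rab3 effector gene, rph3ab, fell from 12, 10.4 and 9.8 CPM to 1.29, 1.75 and 6.03 CPM (-1.81 ± 0.48, edgeR adjusted p = 0.0195), with mutant 3 again nearest to wild type. Its change was -2.83 without that mutant, and leaving out wild-type sample 1 (adjusted p = 0.0594) or 2 (0.0513) ended the call, within a range of 2.58e-06 to 0.0594. The dynein adaptor gene bicd1a also fell (-1.32 ± 0.24). Risen effectors included mlpha, which links Rab27a to myosin on melanosomes, and micall2b. Levels of mlpha went from 6.54, 7.58 and 6.28 CPM to 16.1, 13.1 and 14.8 CPM (1.11 ± 0.13, edgeR adjusted p = 0.000129). Its paralogue mlphb was not called (-0.21, edgeR adjusted p = 0.254). The change in micall2b was 0.93 ± 0.19, or 0.53 on the log2(FPKM + 1) scale.

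Of 7 genes of Rab escort and prenylation 3 rose (42.9%), beside 25.1% of all genes. Transcripts of rabac1, a prenylated Rab acceptor, rose from 22.4, 27.6 and 22.5 CPM to 53.6, 39.6 and 51 CPM (0.99 ± 0.13, edgeR adjusted p = 0.000258). The small rises of the prenylation enzyme genes rabggta (0.28) and rabggtb (0.25) were lost in 12 and 10 of 16 alternatives.

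**Figure D4:**
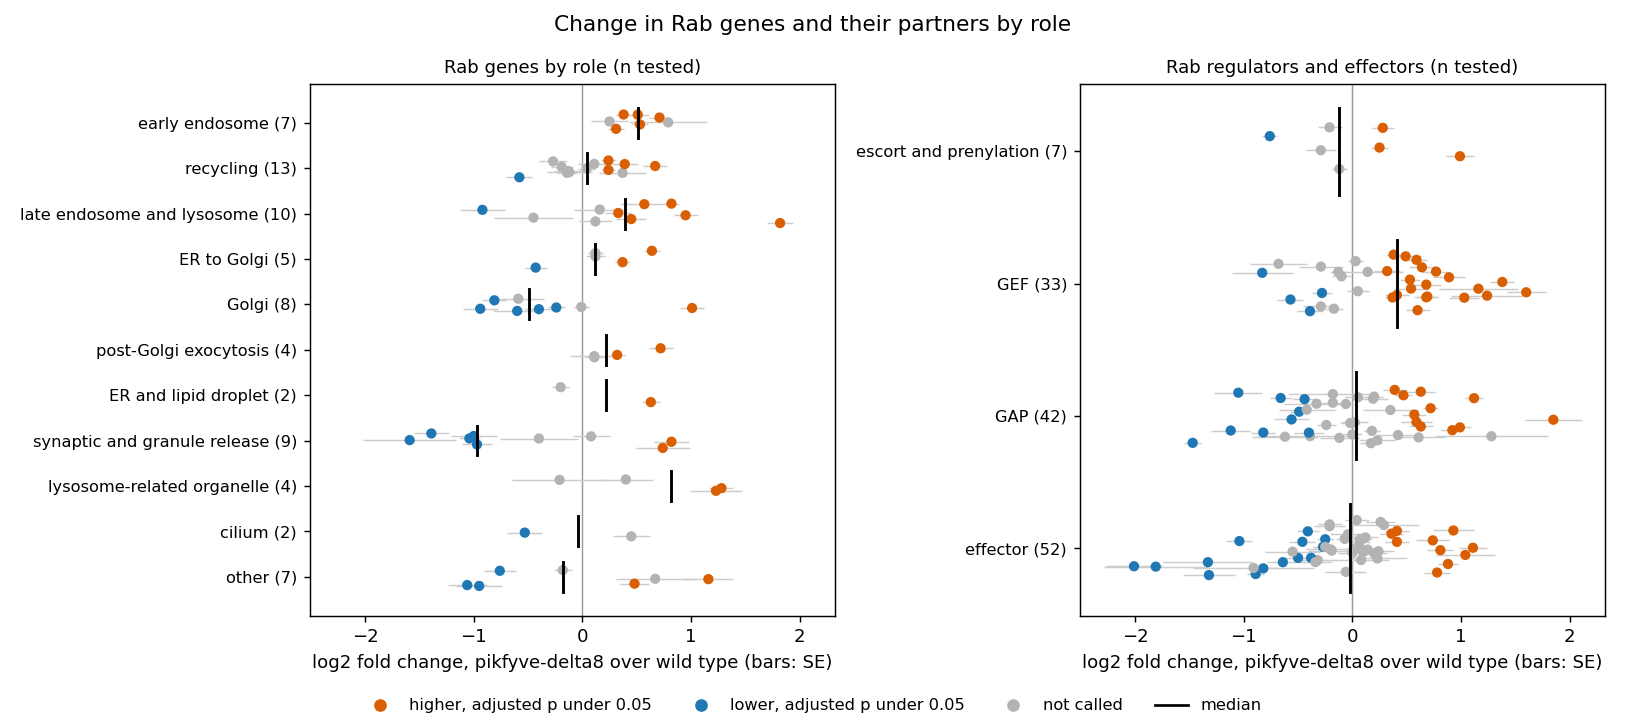
Log2 fold changes (mutant over wild type, bars give SE) of Rab genes by role on the left and of Rab regulators and effectors on the right; orange points rose, blue points fell, grey points were not called and black lines are medians. Early endosome genes and GEFs lie mostly to the right of 0, with medians of 0.51 and 0.41, and synaptic genes mostly to the left, with a median of -0.97.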

How the data were processed

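The authors deposited a table of estimated counts, FPKM and TPM per gene and sample, per the file headers. Per the submitters' processing notes, Bowtie2, RSEM 1.3.1, DESeq2 1.4.5 and the build GRCz11 were used, with order and settings not given in the sources used here. Deposited estimated counts (10.7% to 11.6% not whole) were rounded, and the test came from edgeR 4.0.16 under R 4.3.3 (filterByExpr, TMM, robust quasi-likelihood F-test on genotype, two-sided, Benjamini-Hochberg over 21104 genes). Deposited TPM gave per-length levels, and deposited FPKM gave limma 3.58.1 fits on log2(FPKM + 1) and log2(FPKM + 0.1). The SE is the fold change over the square root of F. Alternatives were other scalings and filters, DESeq2 1.42.0, limma-voom, the replicate number as a block and each sample left out.

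Groups and replicate numbers came from the titles. Members, classes, lists and tests were chosen with earlier results of these data known. Named Rabs were those called with at least 2-fold change, up to 3 called at each end of a class, and all of Rab3, Rab5, Rab7, Rab9 and Rab27. Named regulators were up to 2 at each end of a role with a mean count of at least 50. The uncalled mlphb, rab23 and the other uncalled Rabs were added after their values were seen. The result for 1 gene of the escort list is not reported here. In simulated counts, 100% of 50 genes raised 2-fold and 86% of 50 lowered to 0.5 were called among 21086 genes, with 16 of 20886 unchanged genes called. The changed genes had a mean count of at least 50, and a single dispersion served all genes and both genotypes. Far fewer genes were changed than were called in the data. The simulation thus does not cover genes with fewer reads or the wider spread among the mutants. No sample pair agreed within counting noise (mean chi-square per gene 2.32 or more). Figures were drawn with matplotlib 3.10.9.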

Additional observations from a re-analysis of the deposited data

How the results depend on the processing

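Of the 27 risen Rab genes 17 kept their call in all 16 alternatives, and of the 17 fallen ones 12 did. Among endolysosomal genes 8 of 15 rises were kept. No such tally of kept calls was made over all genes. No named Rab gene that was called reversed. With library size alone the count of risen Rab genes was 17 and the median was -0.02 over all Rabs, 0.14 over endolysosomal and -0.03 over secretory ones, and the counts were 8 risen and 5 fallen endolysosomal and 1 risen synaptic gene. On log2(FPKM + 1) the medians were -0.02, 0.11 and -0.07, and on log2(FPKM + 0.1) they were -0.02, 0.14 and -0.08, with 8 risen and 5 fallen endolysosomal genes on either scale, and with upper-quartile scaling the endolysosomal median was 0.22. In these samples the same settings also moved the median of all genes down. It was -0.139 with library size alone, -0.060 with upper-quartile scaling, -0.121 on log2(FPKM + 1) and -0.143 on log2(FPKM + 0.1). With DESeq2 and under the replicate block 1 synaptic gene rose. That gene was rab27a, while rab3db lost its call with DESeq2 (adjusted p = 0.124) and under the block (edgeR adjusted p = 0.0528). The block on replicate number left 24 risen and 15 fallen Rab genes, and 45.4% of all genes were called under it. Deviations of same-numbered samples correlated at -0.0745, 0.0503 and -0.0479, and not every sample correlated best with its own number. With so few samples per group these weak correlations cannot show whether same-numbered samples were paired.

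Leaving out each sample in turn gave 20 to 26 risen and 12 to 18 fallen Rab genes and a median of 0.10 to 0.22. Over all genes the called share moved too, from 48% in the main fit. It was 36.2% to 36.9% without a wild-type sample and 45.1% to 51.4% without a mutant. These fits gave 9 to 13 risen and 2 fallen endolysosomal genes (median 0.24 to 0.33). They gave 6 risen and 3 to 7 fallen secretory genes (0.03 to 0.11), and 1 to 2 risen and 4 to 5 fallen synaptic genes (-1.06 to -0.86). With CPM in place of TPM, a setting chosen after seeing the data, the endolysosomal, secretory and synaptic shares differed by 5.76, -1.96 and -3.27 percentage points, against 5.94, -1.9 and -3.21. Depth limits rab19, rab38a and other genes near the floor of 3 counts, 0.191 to 0.218 CPM.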
